A study of Mus musculus with 59 samples.

Results

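KLS cells from mice labelled for induced loss of both Daxx and Pu.1 were compared with KLS cells from wild-type mice at 3 weeks post induction (w.p.i.). KLS cells are the Lin- Sca-1+ c-Kit+ cells of the bone marrow, the compartment that holds haematopoietic stem cells and multipotent progenitors. The comparison held 5 of the 59 libraries of the series, and its members were chosen by genotype, cell type and time from the sample labels. The group labelled as double loss (DKO) had 2 libraries from mice floxed at both genes, Daxx F/F and Pu.1 F/F, and the control group (WT) had 3 libraries of Daxx +/+ mice. All were hemizygous for Cre. The column of the third WT library bore no replicate number, and it was placed in its group by the control mark it carries in the repeat table. The WT controls also carried the Mx1Cre transgene and received the inducer, so both groups shared Cre and its induction. All mice were C57BL/6. The methods give the floxed Daxx line as C57BL/6N, and the Mx1Cre and floxed Pu.1 lines as C57BL/6J. They do not state the mix of both substrains in each group. Mx1Cre responds to interferon, is induced by pI:pC injection, and is active in blood-forming cells and in other tissues, so its activity is not confined to KLS cells. A group of 3 Daxx-KO libraries of the same cells and time was used to show where DKO differed from the group labelled for loss of Daxx alone. These 3 libraries also entered the gene fit of DKO against WT, and so its shared estimate of the spread. KLS libraries labelled for loss of Pu.1 alone stand in a table that was normalized separately and were not used here. The methods give the usual age at induction as a range for the whole study, and the labels give no age for a library. The labels do not tie each library to a mouse, while the study describes its genomic assays as made on biological replicates, and the p-values measure the spread between these libraries.

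DAXX is a chaperone that deposits the histone variant H3.3, together with ATRX, at heterochromatin and at repeats. PU.1, the product of Spi1, is an ETS-family transcription factor that binds sites with a purine-rich GGAA core. Its level helps to set lymphoid, monocytic and granulocytic output from progenitors, and C/EBP alpha, C/EBP epsilon and GFI1 act beside it in the granulocytic branch. The textbook targets of PU.1 include receptors for the myeloid cytokines, Fc receptors, integrin subunits and subunits of the phagocyte oxidase.

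The libraries held between 12265167 and 15812520 gene reads, and between 19137 and 20424 genes had a read. Values are the deposited normalized read counts, in which 1 read is worth about 1 in each library, and they are given in the order DKO 1 and 2, then WT 1, WT 2 and the unnumbered WT library. Kit, the c-Kit gene of the gate, was at 9846 and 9961 in DKO and at 16527, 15072 and 11867 in WT. Ly6a, the Sca-1 gene, was at 329 and 565 in DKO and at 305, 245 and 433 in WT, so both gate markers were present in every library. Both DKO libraries lay below every WT library for Kit, with a difference of -0.54 ± 0.19 on the log2 scale that missed the threshold (limma, adjusted p = 0.081). For Ly6a the groups overlapped (limma, adjusted p = 0.48). Markers of cells that the lineage antibodies remove were not at 0, and they differed between libraries of 1 group. The eosinophil granule gene Epx was at 19211 in WT 1, at 168 in WT 2 and at 4757 in the unnumbered WT library, against 107 and 838 in DKO. The summed level of the plasma cell genes was 58070 and 31307 in DKO, 3067 and 2121 in WT 1 and WT 2, and 36978 in the unnumbered WT library. The unnumbered WT library also held the highest WT sums of the neutrophil and macrophage lists and, of the WT libraries, correlated best with both DKO libraries. The 4 Y-linked genes Ddx3y, Eif2s3y, Kdm5d and Uty had 0 reads in DKO 1 and between 15 and 37 summed reads in each of the other 7 libraries. Xist was listed at 0 in all 8 libraries. In bulk RNA, fewer cells of a type and less RNA per cell cannot be told apart.

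Of 15200 genes tested, 1404 were higher and 1277 were lower in DKO than in WT at an adjusted p under 0.05 (limma on log2 of the value + 1), which is 9.24% and 8.4% of the genes tested. Of these, 891 rose and 800 fell by at least 1 on the log2 scale. The DKO and WT libraries did not overlap in 49.7% of all genes tested, with DKO above in 26.0% and below in 23.7%, so a gap between the groups was common among all genes. The median log2 difference over all genes tested was -0.0003. The counts depended on single libraries, with 574 calls without DKO 1, 1306 without WT 1, 1289 without WT 2 and 2681 with all. At the same threshold, 1242 genes were higher and 1098 lower in DKO than in Daxx-KO, which is 8.17% and 7.22% of the genes tested.

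**Figure D1:**
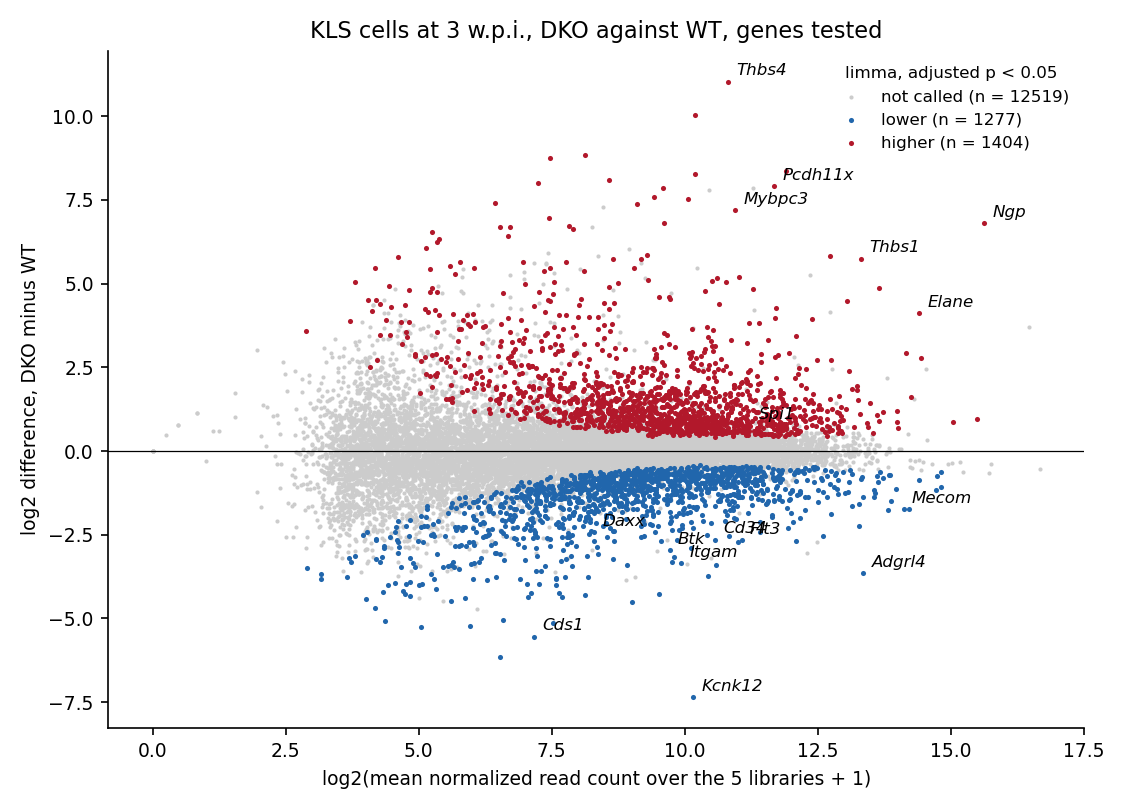
Log2 difference between DKO and WT (vertical axis) against the log2 mean normalized read count over the 5 libraries (horizontal axis), 1 point per gene tested. Red points mark the 1404 genes that were higher and blue points the 1277 that were lower; Thbs4 lies highest at 11.03 and Kcnk12 lowest at -7.35.

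The label of Daxx deletion was borne out in both DKO libraries, whereas the Spi1 gene count was not lower. Daxx was at 93.9 and 78.1 in DKO, and at 423, 467 and 505 in WT. The groups did not overlap, and Daxx fell by 2.42 ± 0.26 on the log2 scale (SE, adjusted p = 0.00054). Daxx did not differ between DKO and Daxx-KO beyond the spread (log2 difference 0.01 ± 0.26, adjusted p = 0.98). Spi1 was at 3330 and 2994 in DKO, and at 1676, 1669 and 2320 in WT. Both DKO libraries lay above every WT library, and the Spi1 count rose by 0.76 ± 0.17 (adjusted p = 0.016). That call was lost without DKO 1 (adjusted p = 0.14), without WT 1 (0.061) or without WT 2 (0.06). A count summed over the whole gene cannot show whether a part of it was deleted, so these values do not check the Pu.1 label, and DKO stands throughout for the libraries labelled Daxx F/F Pu.1 F/F.

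The gene next to Spi1 showed one of the larger rises. Spi1 lies at chr2:91082390-91115756 and Mybpc3 at chr2:91118144-91136516 (GRCm38, both on the plus strand), 2387 bases apart. Mybpc3 encodes the cardiac form of myosin-binding protein C. It was at 6428 and 3333 in DKO, at 14.1, 40.6 and 49.0 in WT, and at 49.8, 28.7 and 17.8 in Daxx-KO. The gain was 7.20 ± 0.59 (adjusted p = 0.00018) over WT and 7.25 ± 0.59 (adjusted p = 0.00013) over Daxx-KO. Psmc3, a proteasome subunit gene in the same neighbourhood, rose by 0.65 ± 0.19 (adjusted p = 0.046). The other 6 neighbours tested, among them Madd and Celf1, were not called. Within 1 Mb of Spi1, 5 of 29 genes tested were higher and 2 lower, which is 24.1% against 17.6% of all genes tested, and within 5 Mb 14.5% were called. Without any one of DKO 1, DKO 2, WT 1 and WT 2, 1 of the 8 neighbours was called. Whether transcripts run from Spi1 into Mybpc3 was not tested.

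Textbook targets of PU.1 moved in both directions. Of 28 tested, 9 were lower and 4 higher, with a median log2 difference of -0.83 against -0.0003 for all genes tested. The shares of all genes tested were 8.4% lower and 9.24% higher. The 9 that fell included receptors and adhesion or signalling molecules of the myeloid surface. Itgam, the CD11b integrin subunit, was at 96.8 and 176 in DKO and at 1299, 720 and 2592 in WT, with a fall of 3.35 ± 0.45 (adjusted p = 0.0015). Itgam encodes one of the antigens that the lineage sort removes, in every group. Flt3, the receptor of lymphoid and dendritic progenitors, was at 381 and 670 in DKO and at 2761, 3824 and 3090 in WT. It fell by 2.66 ± 0.25 (adjusted p = 0.00031) and lay still further below Daxx-KO, in which it was at 7765, 6176 and 5664. Btk, the Bruton tyrosine kinase, was at 126 and 214 in DKO and at 1114, 1350 and 1396 in WT (log2 difference -2.96 ± 0.23, adjusted p = 0.00018). Its DKO values were also under those of Daxx-KO, by 3.02 ± 0.23 (adjusted p = 0.0001). Laptm5, a lysosomal membrane protein, and Ptpn6, the SHP-1 phosphatase, had smaller falls of 0.62 ± 0.16 and 0.72 ± 0.20. Csf2ra, Cd33, Mpeg1 and Tlr4 made up the 9, with differences between -2.60 and -0.92. Without DKO 1, the list held 7 calls in place of 13.

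Among the PU.1 targets that rose were genes of phagocyte oxidation, fungal sensing and Fc signalling. Ncf4, a cytosolic subunit of the phagocyte oxidase, was at 3302 and 2084 in DKO and at 353, 395 and 794 in WT (log2 difference 2.45 ± 0.36, adjusted p = 0.0022). Fcer1g, the common Fc receptor gamma chain, was at 1844 and 1250 against 291, 176 and 334 (2.56 ± 0.38, adjusted p = 0.0024). Clec7a, the beta-glucan receptor, rose by 2.62 ± 0.49. Cybb, the membrane subunit of the same oxidase, was not called, at 478 and 395 in DKO against a range from 173 to 2988 in WT. Csf3r, the G-CSF receptor, was at 2696 and 2160 in DKO and at 2150, 2172 and 2355 in WT, so the groups overlapped, with a difference of 0.12 ± 0.15 (adjusted p = 0.63). Csf3r was higher than in Daxx-KO by 0.90 ± 0.15 (adjusted p = 0.0037).

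**Figure D2:**
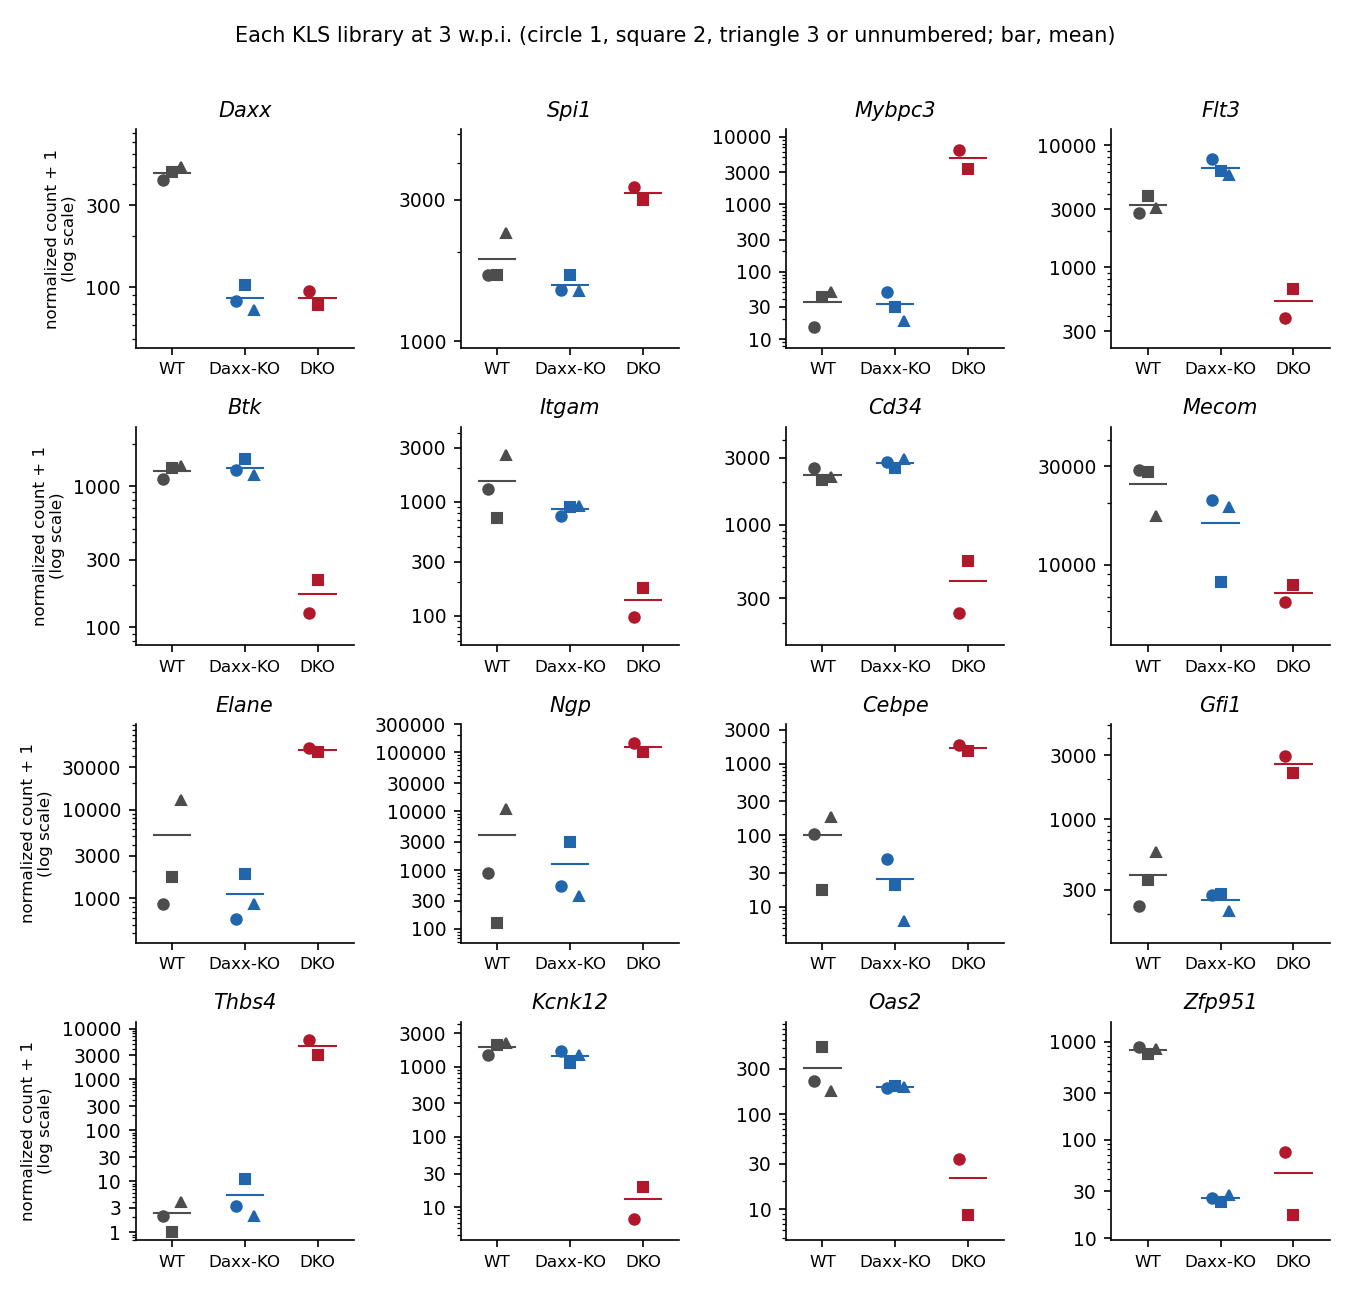
Normalized read count + 1 (vertical log axis) in each KLS library at 3 w.p.i. for 16 genes, by genotype, with a bar at the group mean. DKO lies apart from both other groups for Mybpc3, Flt3, Btk, Elane, Ngp and Thbs4, and together with Daxx-KO for Daxx and Zfp951.

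Genes of the azurophil (primary) granules and of early neutrophil progenitors were higher in DKO. Of 15 tested, 8 rose and 0 fell, with a median log2 difference of 1.58. The shares of all genes tested were 9.24% higher and 8.4% lower. Elane, which encodes neutrophil elastase, was at 49324 and 44193 in DKO, and at 849, 1737 and 12857 in WT. Its rise was 4.13 ± 0.91 (adjusted p = 0.015) over WT and 5.58 ± 0.91 (adjusted p = 0.0032) over Daxx-KO. Ctsg, the cathepsin G gene, was at 11694 and 11712 against 251, 694 and 2487 (3.95 ± 0.81, adjusted p = 0.01). Calr, an ER chaperone expressed in most cells, Srgn, the proteoglycan that packs granule proteins, Gstm1 and Hp also rose, by 0.86 ± 0.24, 1.06 ± 0.21, 2.86 ± 0.24 and 4.83 ± 0.96. Mpo, the myeloperoxidase gene, was at 37886 and 47431 in DKO and at 2388, 8680 and 23075 in WT. Its groups did not overlap, but it was not called (2.44 ± 0.82, adjusted p = 0.067). Against Daxx-KO, where Mpo was at 1859, 7891 and 2869, the difference of 3.61 ± 0.82 was called (adjusted p = 0.016). For Elane, Ctsg, Hp and Mpo the highest WT value was that of the unnumbered library. Without that library 13 of the genes were called, and without DKO 1 only 2 were.

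The PU.1 core motif GAGGAAGT was searched on both strands and found in the upstream 250 bases of 4 of the 13 primary granule genes with a RefSeq promoter (GRCm38.p6). Over all 10983 tested genes with a promoter the share was 3.04%, among genes called higher it was 3.33% and among genes called lower 4.34%. These stretches are shown because the motif is that of the factor encoded by the second floxed gene. Capitals mark the motif, and each is read along the gene's own strand.
Mpo (chr11:87793540-87793587): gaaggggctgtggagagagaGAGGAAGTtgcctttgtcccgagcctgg
Prtn3 (chr10:79879552-79879599): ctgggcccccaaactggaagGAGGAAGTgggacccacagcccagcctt
Elane (chr10:79886207-79886254): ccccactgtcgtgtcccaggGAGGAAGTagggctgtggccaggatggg
Ctsc (chr7:88277914-88277961): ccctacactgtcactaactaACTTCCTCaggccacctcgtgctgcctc
Only Elane among the 4 was called. None of the 21 textbook PU.1 targets with a promoter held these letters, which says only that the letters are not in that window.

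Late neutrophil granule genes were higher as well, although not all of their kind. Of 16 such genes tested, 6 rose and 0 fell, beside 9.24% higher and 8.4% lower of all genes tested. The median log2 difference of the list was 3.31. Ngp, the neutrophilic granule protein gene, was at 140990 and 100170 in DKO, and at 887, 124 and 10750 in WT. This made a rise of 6.81 ± 1.49 (adjusted p = 0.014). Camp, the cathelicidin gene, was at 14066 and 17221 against 165, 53.8 and 2266 (5.83 ± 1.19, adjusted p = 0.01). The calcium-binding protein gene S100a8 rose by 3.82 ± 1.10 and the surface antigen gene Cd177 by 5.17 ± 1.31. S100a9, whose product pairs with that of S100a8, was at 4529 and 8963 in DKO and at 530, 204 and 6950 in WT and was not called (adjusted p = 0.13). The granule genes Ltf, Mmp8 and Chil3 were not called. Ltf, the lactoferrin gene, was at 190 and 440 in DKO against 423, 16.8 and 3891 in WT. Mmp8, the neutrophil collagenase gene, was at 8.62 and 3.86 in DKO against 10.8, 6.18 and 49.0 in WT. The chitinase-like gene Chil3 was at 12.5 and 27.0 in DKO, under the 40.6 of the lowest WT library, and was not called. DESeq2 on the recovered reads called 2 of the list, edgeR 3, and the test without the unnumbered WT library 10. It was 1 without DKO 1 and 3 without DKO 2 or without WT 1.

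Transcription factors of the granulocytic branch were among those that rose. Of 17 myeloid transcription factors tested, 6 were higher, Spi1 included, and 2 lower, beside 9.24% and 8.4% of all genes tested. Cebpa was at 1234 and 1182 in DKO, and at 143, 198 and 355 in WT (2.48 ± 0.36, adjusted p = 0.002). Cebpe, which is needed for secondary granules, was at 1813 and 1534 against 105, 15.9 and 180 (4.60 ± 0.99, adjusted p = 0.013). Gfi1, a repressor of the monocytic programme, was at 2979 and 2207 against 226, 354 and 576 (2.83 ± 0.34, adjusted p = 0.00094). Cebpd and Id2 rose as well, by 2.31 ± 0.55 and 1.92 ± 0.51. These 5 were also higher than in Daxx-KO, with adjusted p-values between 0.00036 and 0.036. Gata2, a stem cell factor, was at 812 and 887 in DKO, and at 3250, 3404 and 1711 in WT (log2 difference -1.65 ± 0.26, adjusted p = 0.0032). Zeb2 fell by 0.70 ± 0.19. Irf8, which directs monocyte and dendritic fate, was at 169 and 185 in DKO against 340, 1023 and 1317 in WT, a difference of -2.12 ± 0.68 that missed the threshold (adjusted p = 0.057). Runx1 and Myb did not pass, with differences of -0.40 ± 0.21 and -0.09 ± 0.14. The list held 3 calls without DKO 1, 5 without DKO 2 and 4 without WT 2, in place of 8.

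**Figure D3:**
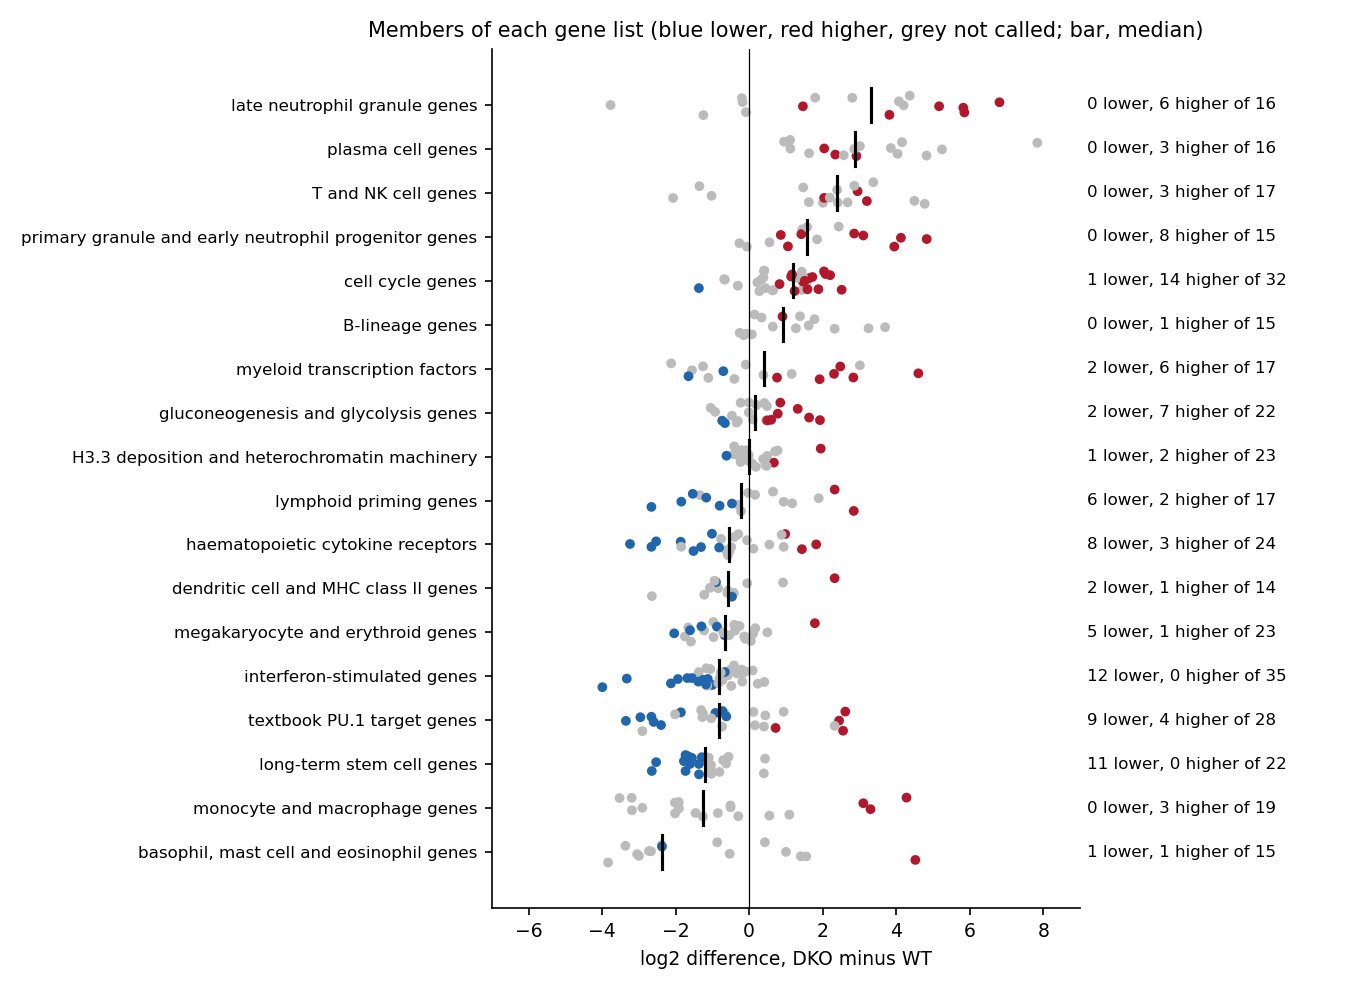
Log2 difference between DKO and WT (horizontal axis) of each tested member of 18 gene lists (rows, ordered by median). Red points were called higher, blue lower and grey not called, the black bar is the median, and the counts stand at the right; the stem cell and interferon-stimulated lists hold 11 and 12 genes called lower and 0 called higher.

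Stem cell genes were lower in DKO. Of 22 long-term stem cell genes tested, 11 fell and 0 rose, beside 8.4% lower and 9.24% higher of all genes tested. In the list, 20 of the 22 differences were below 0 (median -1.21). Mecom, which encodes EVI1, was at 6586 and 7965 in DKO, and at 28878, 27979 and 17156 in WT (-1.73 ± 0.38, adjusted p = 0.014). Meis1, a homeobox partner of the HOXA proteins, was at 4537 and 7394 against 23320, 21301 and 15670 (-1.77 ± 0.34, adjusted p = 0.0082). Hlf and Mllt3, both transcriptional regulators of stem cells, fell by 1.36 ± 0.37 and 1.36 ± 0.25. Cd34, a surface antigen of progenitors that marks short-term rather than long-term stem cells in the mouse, was at 235 and 554 in DKO and at 2541, 2091 and 2187 in WT (-2.65 ± 0.29, adjusted p = 0.00059). Tek, the angiopoietin receptor, was at 135 and 173 against 1041, 937 and 713 (-2.53 ± 0.26, adjusted p = 0.00048). Fgd5 and Mycn were not called, with differences of -1.03 ± 0.40 and 0.40 ± 0.30. Mecom, Meis1, Hlf and Mllt3 did not pass against Daxx-KO, where the adjusted p-values lay between 0.056 and 0.32. Of the 22 genes, 7 were lower and 0 higher than in Daxx-KO (median -0.86), where 7.22% of all genes tested were lower. Gata2 was lower than in Daxx-KO by 1.20 ± 0.26 (limma, adjusted p = 0.013). Without DKO 1 the list held 3 calls, without WT 1 it held 6, without WT 2 it held 7, and without the unnumbered WT library 18.

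Cytokine receptors fell more often than they rose, with 8 of 24 tested lower and 3 higher (median -0.55). The shares of all genes tested were 8.4% lower and 9.24% higher. Besides Flt3, Tek and Csf2ra, the 8 included Csf2rb2, Il6ra, Il6st, Il1r1 and Ifnar2. Csf2rb2, the IL-3-specific beta chain, was at 19.2 and 20.2 in DKO and at 171, 253 and 170 in WT (-3.24 ± 0.33, adjusted p = 0.00048). One subunit gene each of the type I and type II interferon receptors was called. Ifnar2 was at 835 and 932 in DKO and at 1977, 2147 and 2460 in WT (-1.31 ± 0.14, adjusted p = 0.0006). Ifngr1 was at 7137 and 5252 against 1640, 1375 and 2286 (1.82 ± 0.23, adjusted p = 0.0011). The chemokine receptor Cxcr4, which holds cells in the marrow, rose by 1.44 ± 0.34, and Il3ra by 0.98 ± 0.29. Without DKO 1 the list held 6 calls in place of 11. Csf2rb2 and Csf2rb are close copies, and reads may be split between them. Il2rg was listed at 0 in all 8 libraries and was not tested. The same held for members of other lists, among them Rag1, Rag2, Cd27, Igkc, Iglc1, Ms4a1, Hoxb5 and Ndn.

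The interferon-stimulated genes were low in DKO. Of 35 tested, 12 fell and 0 rose, with a median of -0.81. The shares of all genes tested were 8.4% lower and 9.24% higher. Against Daxx-KO, 11 of the list were lower and 0 higher (median -0.91), where 7.22% of all genes tested were lower. Ifi203 was at 1006 and 1056 in DKO, and at 2570, 3849 and 1965 in WT (-1.38 ± 0.25, adjusted p = 0.006). Irf9, part of the factor that interferon receptors activate, was at 398 and 380 against 1021, 977 and 611 (-1.12 ± 0.22, adjusted p = 0.0085). Trim30a and Oasl2 fell by 0.66 ± 0.16 and 1.00 ± 0.27. Oas2, a sensor of double-stranded RNA chosen here after its value was seen, was at 32.6 and 7.71 in DKO and at 224, 514 and 173 in WT (-3.99 ± 0.58, adjusted p = 0.0022). The sensors Eif2ak2 and Ifih1 were not called, with differences of 0.10 ± 0.18 and -0.20 ± 0.16. The inducer pI:pC itself evokes interferon, and both groups received it. Without DKO 1 only 2 of the list were called, and without WT 1 or without WT 2 it was 5 each. Oas1a and Oas1g, which were also lower, are close copies and may share reads.

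The interferon-stimulated response element, searched on both strands as GAAA, any 2 bases and GAAA again, was present in the upstream 250 bases of 14 of the 24 tested interferon-stimulated genes with a promoter and of 6 of the 9 called lower. Over all tested genes with a promoter the share was 3.36%, and it was 2.86% among genes called higher and 5.25% among genes called lower. The stretches of members that fell together are shown for the place of the element, in capitals, along the gene's strand (RefSeq, GRCm38.p6).
Ifi203 (chr1:173942498-173942547): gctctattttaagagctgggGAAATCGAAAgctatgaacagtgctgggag
Gbp2 (chr3:142620584-142620633): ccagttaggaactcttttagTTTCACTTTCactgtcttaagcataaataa
Gbp3 (chr3:142559979-142560028): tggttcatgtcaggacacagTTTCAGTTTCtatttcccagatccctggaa
Trim30a (chr7:104465200-104465249): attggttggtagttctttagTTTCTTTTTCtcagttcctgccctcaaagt
In Ifi203 the element lay on the strand of the gene, and in the other 3 on the opposite strand. In Gbp3 a second match overlapped the one shown. Gbp2 and Gbp3, interferon-induced GTPases, fell by 1.17 ± 0.27 and 1.94 ± 0.29.

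Lymphoid priming genes were lower in part. Of 17 tested, 6 fell and 2 rose (median -0.22), beside 8.4% lower and 9.24% higher of all genes tested. Against Daxx-KO, 9 of the list were lower and 0 higher (median -1.27), where 7.22% of all genes tested were lower. Mef2c, a factor of lymphoid-primed progenitors, was at 2410 and 3020 in DKO, and at 8306, 8251 and 6960 in WT (-1.53 ± 0.16, adjusted p = 0.00052). Bcl11a was at 2990 and 3655 against 7753, 8406 and 6261 (-1.17 ± 0.22, adjusted p = 0.0071), and Tcf4 fell by 0.47 ± 0.14. The list held 3 calls without DKO 1, 4 without WT 1 and 5 without WT 2, with edgeR or with no filter, in place of 8. Sox4 was at 309 and 443 against 1350, 1451 and 1202 (-1.84 ± 0.20, adjusted p = 0.00052). Dntt, the terminal transferase of lymphoid precursors, was at 457 and 1094 in DKO, at 1760, 2314 and 1409 in WT, and at 10360, 18887 and 6767 in Daxx-KO. Its difference of -1.34 ± 0.44 from WT missed the threshold (adjusted p = 0.063), whereas that of -3.96 ± 0.44 from Daxx-KO passed (adjusted p = 0.00051). The chemokine receptor gene Ccr9 and Ly6d were the members that rose. Ikzf1 and Notch1 were not called, with differences of -0.03 ± 0.14 and 0.65 ± 0.21. The early B-lineage factors Ebf1 and Pax5 were not called either. Ebf1 was at 970 and 216 in DKO and at up to 519 in WT, and Pax5 was at 356 and 43.4 in DKO and at up to 72.4 in WT.

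Genes of dividing cells were higher in DKO than in WT. Of 32 cell cycle genes tested, 14 rose and 1 fell (median 1.20), beside 9.24% higher and 8.4% lower of all genes tested. Against Daxx-KO, 0 of the 32 were called higher and 2 lower, while their median log2 difference was 0.62. Ccna2, the S and G2 cyclin, was at 1812 and 1194 in DKO, and at 272, 324 and 712 in WT (1.88 ± 0.44, adjusted p = 0.019). In Daxx-KO it was at 586, 1303 and 612, with a difference of 0.92 ± 0.44 (adjusted p = 0.2). Rrm2, a subunit of ribonucleotide reductase, was at 3360 and 2157 against 347, 529 and 1082 (2.20 ± 0.52, adjusted p = 0.019). Pcna, the replication clamp, and Cdk1 rose by 0.83 ± 0.24 and 1.59 ± 0.39. Mki67 was at 49799 and 18102 in DKO and at 5840, 11437 and 15800 in WT and was not called (adjusted p = 0.1), and neither was the G1 kinase gene Cdk6 (0.33 ± 0.21). Ccnd1, cyclin D1, was the member that fell, at 86.2 and 147 against 363, 297 and 231 (-1.37 ± 0.27, adjusted p = 0.0096). The list held 0 calls without DKO 1, 7 without DKO 2 and 2 without WT 1 or without WT 2, in place of 15.

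Genes of glycolysis and gluconeogenesis gave 7 rises and 2 falls among 22 tested, with a median of 0.15. The shares of all genes tested were 9.24% higher and 8.4% lower. Gpi1, glucose phosphate isomerase, was at 15503 and 10205 in DKO, and at 3392, 3631 and 5433 in WT (1.63 ± 0.25, adjusted p = 0.0026). Eno1, Hk2 and Tpi1 rose by 1.32 ± 0.33, 0.49 ± 0.13 and 0.78 ± 0.18. The gluconeogenic gene Fbp1 was at 498 and 351 in DKO, at 139, 102 and 92.0 in WT, and at 299, 360 and 402 in Daxx-KO. Its rise over WT was 1.93 ± 0.27 (adjusted p = 0.0018), against 0.25 ± 0.27 (adjusted p = 0.59) over Daxx-KO. Fbp1 was chosen after its values were seen. Without DKO 1, WT 1 or WT 2 the list held 2, 4 and 3 calls.

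Among genes of the megakaryocyte and erythroid branch, 5 of 23 fell and 1 rose (median -0.66). The shares of all genes tested were 8.4% lower and 9.24% higher. Against Daxx-KO, 3 of the list were higher and 0 lower (median 0.20), where 8.17% of all genes tested were higher. Zfpm1, the FOG-1 cofactor of GATA1, was at 2010 and 2658 in DKO, and at 6124, 7005 and 4286 in WT (-1.30 ± 0.21, adjusted p = 0.0034). Tal1 and Car2 fell by 0.87 ± 0.17 and 0.66 ± 0.20. The tetraspanin Cd9 was the member that rose, at 1603 and 1522 against 492, 417 and 449 (1.79 ± 0.16, adjusted p = 0.00026). Tfrc and Itga2b were not called, with differences of 0.50 ± 0.40 and -0.13 ± 0.19. Itga2b was higher than in Daxx-KO by 1.00 ± 0.19 (limma, adjusted p = 0.0063). Without DKO 1, 1 call of the list was made.

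Few markers of other cell types were called, and several differed between libraries of 1 group. Of all genes tested, 17.6% were called, 9.24% higher and 8.4% lower, and the counts of these lists stand beside those shares. Of 19 monocyte and macrophage genes, 3 rose and 0 fell, while 14 of the 19 differences were below 0 and the median was -1.26. The 3 were Ly6c2, at 5987 and 5827 in DKO against 277, 275 and 2801 in WT, Vcam1, at 8365 and 6712 against 401, 107 and 1320, and the iron exporter gene Slc40a1, at 1998 and 1446 against 116, 74.1 and 878. Defining genes such as C1qa, Adgre1 and Cd68 were at 10.5 to 80.5 in DKO and were not called. Ly6c2 has close copies, and its reads may be shared. Of 16 plasma cell genes, 3 rose and 0 fell, and all 16 differences were above 0 (median 2.89). This list held 0 calls with edgeR on the recovered reads, 1 with DESeq2, 0 with the 2 groups fitted alone and 1 with no filter. Xbp1 was at 3989 and 3855 in DKO, at 677, 522 and 2433 in WT, and at 1233, 1899 and 2205 in Daxx-KO (2.04 ± 0.53, adjusted p = 0.028). Jchain, the joining chain of secreted antibodies, was at 13327 and 12403 in DKO, at 452, 109 and 7513 in WT and at 1884, 12513 and 5481 in Daxx-KO, and was not called. Among 15 B-lineage genes 1, the tetraspanin gene Cd37, was higher (0.91 ± 0.22). The list was otherwise led by Ighm, at 146450 and 188850 in DKO, and at 7163, 2669 and 110070 in WT (adjusted p = 0.059). Without DKO 1 none of these 3 lists held a call. Plasma cell genes also held 0 calls without WT 1 or without WT 2, 1 without DKO 2 and 14 without the unnumbered WT library, macrophage genes held 5 without DKO 2 or with DESeq2 and 1 with the 2 groups alone, and Cd37 was not called without WT 1 or without WT 2.

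Immunoglobulin V genes, a group counted after the values were seen, gave 17 genes called higher and 0 lower of 124 tested. That is 13.7% called higher, where 9.24% of all genes tested were called higher and 17.6% in either direction. Their summed level was 56672 and 100020 in DKO, 3932, 1919 and 78333 in WT, and 33715, 65645 and 74669 in Daxx-KO. The sums of DKO and WT overlapped, and only WT 1 and WT 2 stood low. Single segments filled the sum differently in each library. Igkv12-46 was at 510 in DKO 1 and 18593 in DKO 2, and Igkv8-19 was at 5784 in DKO 1 and 32.8 in DKO 2. V genes made up 7 of the 10 largest rises of all genes, and near-identical segments share reads, so their single values are uncertain. The part of antibody-making cells in these rises was not tested.

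T and NK cell genes gave 3 rises and 0 falls of 17 tested. Of all genes tested, 9.24% were called higher and 8.4% lower, 17.6% together. The counts of this and the next lists stand beside these shares. Nkg7, a granule membrane protein gene, was at 2175 and 2502 in DKO, and at 247, 219 and 504 in WT (2.95 ± 0.37, adjusted p = 0.0011). The defining genes Cd3d and Cd3e were at 88.1 and 87.2 in DKO 1, at 7.71 and 5.78 in DKO 2, and between 0 and 12 in WT. Thy1 and Tcf7 rose by 2.04 ± 0.55 and 3.20 ± 0.96. Of 15 basophil, mast cell and eosinophil genes, 1 rose and 1 fell. Mcpt8, a basophil protease gene, was at 465 and 343 in DKO, and at 28.1, 9.71 and 16.0 in WT (4.52 ± 0.79, adjusted p = 0.0052). The eosinophil genes Epx and Prg2 were not called, with the highest level in WT 1. Of 14 dendritic cell and MHC class II genes, 2 fell and 1 rose. H2-DMa, which loads peptide onto class II molecules, was at 217 and 259 against 478, 418 and 438 (-0.90 ± 0.24, adjusted p = 0.032). Without DKO 1 the T and NK cell list held 1 call and the other 2 lists 0. Without WT 2 the T and NK cell list held 1, the basophil, mast cell and eosinophil list 7 and the dendritic cell list 1; without WT 1 they held 1, 1 and 0, and without DKO 2 the dendritic cell list held 1. DESeq2 called 5 genes of the T and NK cell list and 6 of the basophil, mast cell and eosinophil list, which held 1 call with no filter, and the dendritic cell list held 1 with the 2 groups alone.

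**Figure D4:**
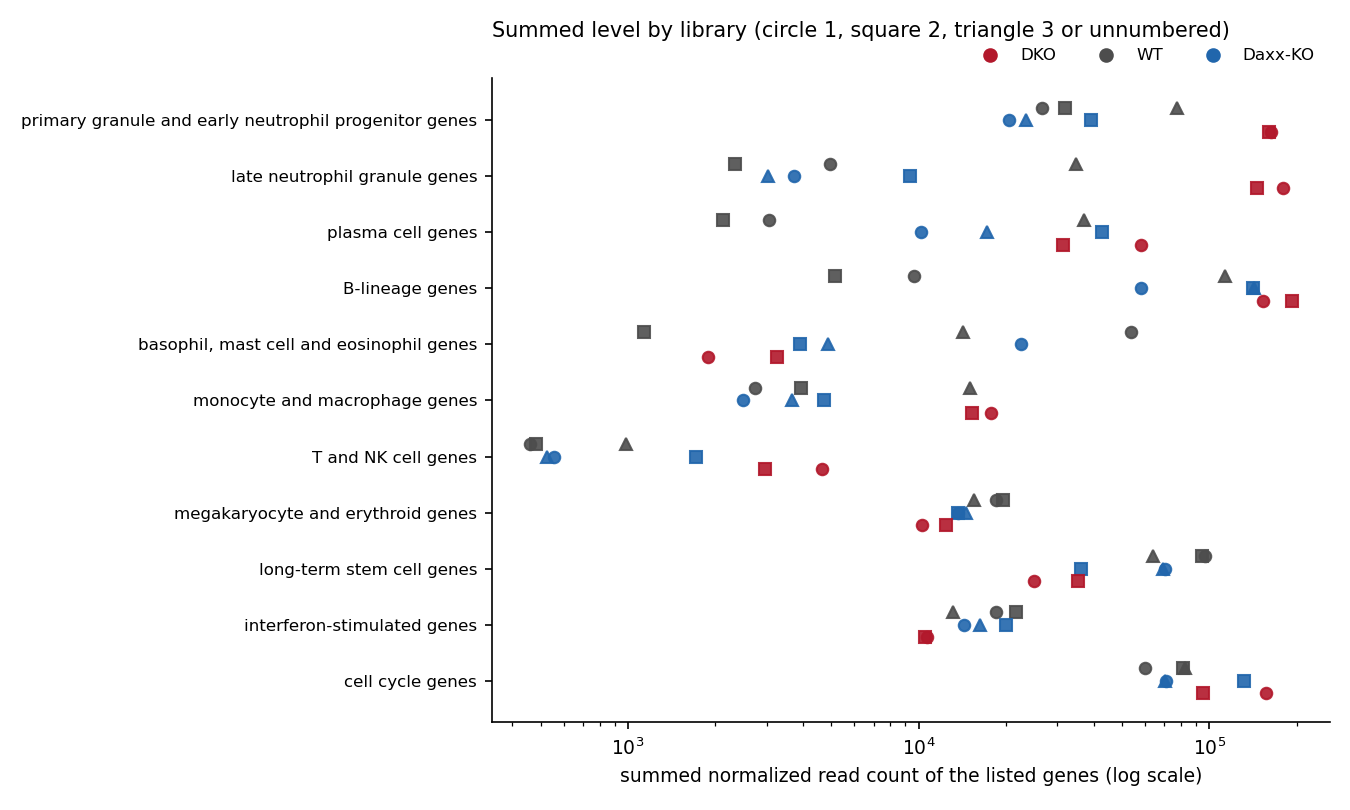
Summed normalized read count of the listed genes (horizontal log axis) in each of the 8 KLS libraries for 11 gene lists (rows), by genotype and library number. The DKO libraries hold the highest sums of both neutrophil lists, the unnumbered WT library (grey triangle) lies nearest to them, and WT 1 holds the highest eosinophil list sum at 53923.

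Of 23 tested genes of H3.3 deposition and heterochromatin, 2 rose and 1 fell (median -0.01), where 17.6% of all genes tested were called. H3f3b, which encodes H3.3, was at 4332 and 4082 in DKO, and at 2773, 2443 and 2710 in WT (0.67 ± 0.18, adjusted p = 0.031). Asf1b, a histone chaperone made in S phase, rose by 1.95 ± 0.46, and the DNA methyltransferase gene Dnmt3b fell by 0.62 ± 0.18. Atrx, the partner of DAXX, was at 11046 and 7702 against 9431, 10299 and 8521 and was not called (-0.03 ± 0.20, adjusted p = 0.95). Of the 8 genes tested in the neighbourhood of Daxx, 3 were higher and 1 lower. Tapbp, Kifc1 and Cuta rose by 0.60 ± 0.14, 1.89 ± 0.50 and 0.92 ± 0.23. Without DKO 1 or WT 2 neither list held a call, without WT 1 they held 0 and 1, and without DKO 2 they held 1 and 2. Within 10 Mb of Daxx, 17.2% of 320 genes were called, against 17.6% of all genes tested.

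The largest falls were in genes of varied function. Kcnk12, a potassium channel subunit, was at 5.75 and 18.3 in DKO, at 1456, 2005 and 2191 in WT and at 1681, 1137 and 1467 in Daxx-KO (-7.35 ± 0.39, adjusted p = 2.4e-05). Cds1, a phospholipid synthesis enzyme, was at 0 and 23.1 against 199, 232 and 256 (-5.54 ± 1.00, adjusted p = 0.0061). Fat1, an atypical cadherin, was at 0 and 18.3 against 217, 149 and 90.0 (-5.03 ± 1.01). Bdh2 and Trim30b fell by 4.40 ± 1.07 and 4.37 ± 0.38, and the non-coding or pseudogene transcripts Gm46224, AC174780.1 and Gm40645 had differences of -5.23 ± 0.74, -5.14 ± 0.57 and -4.36 ± 0.43. The counting is not stated to use strand, so reads of the antisense gene Gm40645 are uncertain. These 8 genes were lower than in Daxx-KO as well. The remaining members of the 10 were not called against Daxx-KO. The zinc finger gene Zfp951 was at 74.7 and 16.4 in DKO, at 879, 756 and 839 in WT, and at 24.9, 22.4 and 26.2 in Daxx-KO. Gm48693 was at 0 and 2.89 in DKO, at 186, 190 and 77.0 in WT and at 11.3, 0.90 and 0 in Daxx-KO. Their DKO values fell from WT by 4.51 ± 0.52 and 6.16 ± 1.163, with differences of 0.51 ± 0.52 (adjusted p = 0.57) and -0.54 ± 1.163 (adjusted p = 0.82) from Daxx-KO.

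The largest rise was that of Thbs4, a thrombospondin of the extracellular matrix. It was at 5922 and 3044 in DKO, and at 1.08, 0 and 3.00 in WT, with 9339 reads over the DKO libraries and 4 over the WT libraries (11.03 ± 0.90, adjusted p = 0.00018). The X-linked protocadherin gene Pcdh11x was at 8739 and 7602 against 32.4, 22.1 and 49.0 (7.91 ± 0.63, adjusted p = 0.00018). Chit1, a chitinase of activated macrophages, was at 1042 and 819 against 0, 0 and 38 (8.09 ± 1.46, adjusted p = 0.006). These 3 were also higher than in Daxx-KO, where their highest values were 9.87, 209 and 6.79. Some abundant genes outside the lists are named here after their values were seen. Thbs1, another thrombospondin, was at 23256 and 26141 in DKO, and at 882, 192 and 568 in WT (5.74 ± 0.56, adjusted p = 0.00038). C3, the central complement component, was at 37716 and 20425 against 349, 462 and 5141 (4.88 ± 1.04, adjusted p = 0.012). Atg12, an autophagy conjugation protein gene, was at 3322 and 3165 against 384, 337 and 375 (3.15 ± 0.16, adjusted p = 2.4e-05). Among falls, Adgrl4, an adhesion receptor, was at 911 and 1867 against 19653, 16155 and 13955 (-3.65 ± 0.34, adjusted p = 0.00034). Ptprc, which encodes CD45 and with it the B220 form of the lineage sort, was at 3138 and 1973 against 6882, 6443 and 5970 (-1.37 ± 0.19, adjusted p = 0.0019).

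Repeats were compared by edgeR's quasi-likelihood test on counts per subfamily, in which a read is placed among copies of a repeat. The repeat table held 3449557 to 4059683 counts per library. Repeat counts per 100 gene reads were 22.05 and 24.4 in DKO, under the 28.3, 27.2 and 27.7 of WT. Relative to all repeat counts, 5 of 827 subfamilies were called (0.605%), 4 higher and 1 lower. RLTR13A1, an ERVK long terminal repeat, was at 196 and 195 CPM, scaled to all repeat counts, in DKO, and at 31.3, 27.7 and 60.3 in WT (2.30 ± 0.30, adjusted p = 0.03). MMTV-int, the internal part of mouse mammary tumour virus elements, was at 1307 and 2091 against 271, 507 and 472 (2.03 ± 0.28, adjusted p = 0.03). IAP1-MM_I-int, an intracisternal A particle, was at 164 and 120 against 56.2, 41.8 and 40.2 (1.63 ± 0.21, adjusted p = 0.03). GSAT_MM, the mouse major satellite of pericentromeric heterochromatin, was at 240 and 261 against 115, 94.4 and 140 (1.11 ± 0.16, adjusted p = 0.03). RLTR13D3 fell, at 63.0 and 72.9 against 122, 136 and 127 (-0.92 ± 0.13). No call was made without WT 1 or without WT 2, 3 were made without DKO 1, and 12 were made without the unnumbered WT library.

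Whole families showed no call. Of 24 families tested, with IAP elements set apart from the other ERVK, 0 passed, 2 had an unadjusted p under 0.05, and DESeq2 called 1. The differences of L1, Alu and B2, the families with the most counts, were -0.03 ± 0.10, 0.01 ± 0.02 and 0.01 ± 0.01. ERVK without IAP had a difference of 0.0049 ± 0.03 and ERV1 one of 0.28 ± 0.15 (edgeR, adjusted p = 0.76). The lowest p-values were those of IAP, with a difference of 0.20 ± 0.06, and of L2, with -0.09 ± 0.02 (edgeR, adjusted p = 0.23 for each). Scaled to gene reads in place of repeat counts, 10 subfamilies were higher and 202 lower, and 11 families lower. How many repeats were called in each direction therefore depended on the denominator. The 5 subfamilies called in the main test kept their call and direction under both. Daxx-KO was not part of the repeat comparison.

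**Figure D5:**
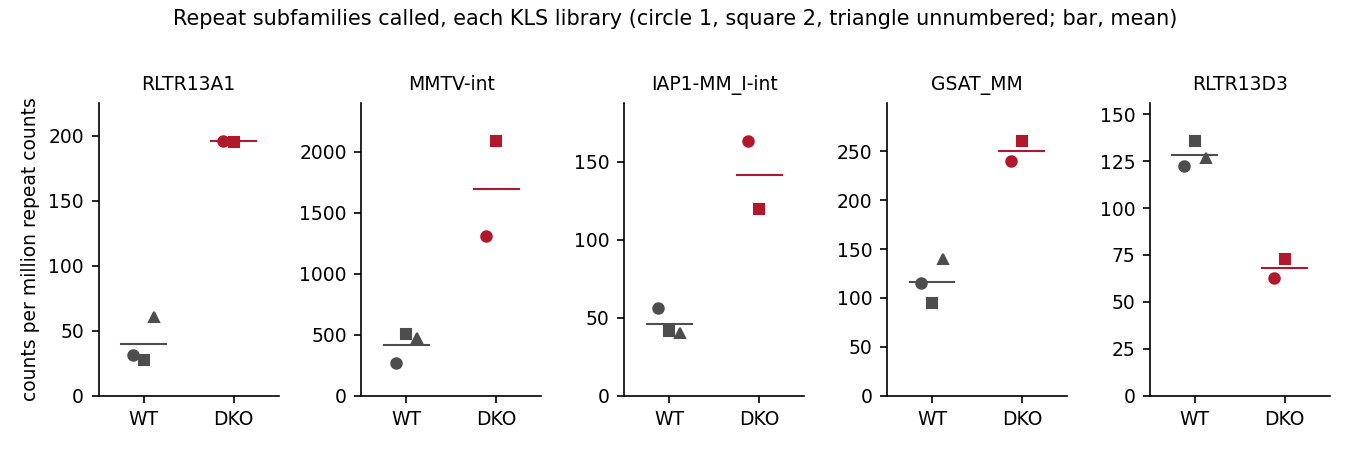
CPM of repeat counts (vertical axes, each from 0) of the 5 called repeat subfamilies in each of the 5 KLS libraries, with a bar at the group mean. The 4 subfamilies at the left lie higher in both DKO libraries than in any WT library, and RLTR13D3 lies lower.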

How the data were processed

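KLS cells were sorted from bone marrow, and total RNA was sequenced. Reads had been processed by the authors with CASAVA 1.8.4, cutadapt 1.13, STAR 2.5.3 and DESeq2 1.16.1 against mm10, per the submitters' processing notes. The gene values are the deposited normalized read counts (signal, divided by size factors by the authors). Whole reads were recovered from them, with 100% of the values of each of the 8 libraries within 0.01 of a whole read. Repeat values are the deposited raw counts per subfamily from the authors' table for this comparison. The kit is given differently in the labels and the methods.

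All 8 KLS libraries were fitted together with limma 3.58.1 (trend) on log2(value + 1), keeping genes that averaged at least 10 across the libraries, and Benjamini-Hochberg adjusted p-values under 0.05 were called. Repeats were tested with edgeR 4.0.16 on the 5 libraries. The log2 pseudocount understates changes of low genes. Genes were named by rule: Daxx and Spi1; the 10 largest rises and falls with a mean of 50 or more and no overlap; and, per list, the 4 most abundant called and 2 most abundant uncalled genes; any other gene was chosen after its values were seen. The comparison, the lists and the rule were chosen with earlier results of these data known. Gene positions come from GENCODE M21. Of 111 columns of values, 98 were not used. Alternatives were other pseudocounts (0.5 and 5), filters, scalings, edgeR and DESeq2 1.42.0 on recovered reads, and the 2 groups alone. Others left out each library, or fitted a replicate block on the libraries numbered 1 and 2. Some genes that the rule names are not reported here.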

Additional observations from a re-analysis of the deposited data

How the results depend on the processing

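The DKO group held 2 libraries, and single libraries moved the counts. Each library of a fit was left out in turn, for genes the Daxx-KO libraries included. This gave 574 to 3195 called genes for DKO against WT, and 672 to 2481 for DKO against Daxx-KO. The 3195 came without Daxx-KO 2, and among the 5 DKO and WT libraries the highest was 2975, without the unnumbered WT library. For repeats it gave 0 to 12 subfamilies and 0 families. The numbers of DKO, WT and Daxx-KO libraries did not pair them (correlations of same-numbered deviations -0.077, -0.184 and 0.068), and a replicate block gave 2117 and 1302 called genes for the 2 comparisons and 45 repeat subfamilies. With gene reads as library size, 212 subfamilies and 11 families were called, and DESeq2 called 32 subfamilies and 1 family. Other alternatives left both gene counts within 1.5 times. Some genes that were not called changed sign when a library was left out: their log2 differences ran from -0.29 to 0.23 for Atrx, -0.0419 to 0.28 for Csf3r, -1.65 to 0.40 for Cybb, -0.028 to 0.24 for Eif2ak2, -0.13 to 0.089 for Hk1, -0.11 to 0.059 for Ikzf1, -0.34 to 0.076 for Itga2b, -0.041 to 0.46 for Pkm, -0.034 to 0.32 for Rgl2 and -0.16 to 0.0079 for Runx2. Under the replicate block Cybb was at 0.40 and Eif2ak2 at -0.0199. Under the alternatives run, no named gene or subfamily that was called changed sign. The cause of these changes was not tested. For genes near the mean of 10, the number of reads limits the precision.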
